A study of Mus musculus with 12 samples.

Results

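Collagen genes were taken as the single gene symbols made of Col, a number, the letter a and a number, with 1 transcript cluster per symbol, the one with the highest mean log2 signal over the 12 arrays. There were 44 such genes among the 22180 genes with a single symbol, 11 fibrillar, 8 of basement membrane and 25 other collagens. The hippocampal slices came from adult mice, 8 to 11 weeks old, of 2 genotypes. Ptpn11D61Y mice were heterozygous for the conditional D61Y allele of Ptpn11, the gene of the phosphatase SHP2, and for Emx1-IREScre, so that Cre is made where the Emx1 promoter is active, in forebrain astrocytes and excitatory neurons. Control mice had the floxed allele and no Cre according to the labels, whereas the paper gives them wild-type Ptpn11 together with Cre, so the alleles that both genotypes share are not settled. Slices, 350 µm thick, of every animal received either DMSO (basal, B) or 2.5 mM 4AP, a blocker of potassium channels, with 50 µM bicuculline, a blocker of GABAA receptors (stimulated, S). Both pulses lasted 10 min, and RNA was taken after 3 h without drugs. Each of the 4 groups, control B, control S, Ptpn11D61Y B and Ptpn11D61Y S, has 3 arrays from 3 animals, and a replicate number marks the same animal in B and S of a genotype.

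Collagens are secreted or membrane-bound proteins in which 3 chains wind into a triple helix. Fibrillar collagens such as type I and type III form the fibres of connective tissue, the network of type IV carries basement membranes, and fibril-associated, beaded filament and short-chain collagens link or fill these structures. In the adult brain, fibroblasts of the meninges and of the vessel sheath and the cells of the vessel wall are the main producers, and the tissue between neurons holds little fibrillar collagen. Chains are hydroxylated in the endoplasmic reticulum, trimmed after secretion and cross-linked outside the cell, and receptors of the integrin and discoidin domain families bind the finished fibres.

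The Mouse Gene 2.0 ST arrays gave linear signal intensities that the authors had summarised with PLIER, and log2 of the intensity is used throughout. No value of a collagen was under the floor of 1, against 2.89% of all values, and 7 of the 44 collagens had a mean log2 signal under 5, where signal over background limits the precision. The replicate 1 arrays stand apart: over all clusters they correlated at 0.871 to 0.916 with the arrays of replicates 2 and 3, which correlated at 0.942 to 0.965 with each other. Results that rest on them are therefore also given without replicate 1 of every group. Markers of hippocampal excitatory neurons were high, with means of 7.93 to 11.97 over the 6 genes. Ptpn11 itself differed by -0.09 ± 0.20 (log2, SE, n = 3 per group) between genotypes in B and by -0.05 ± 0.20 in S, and the array does not read the D61Y codon. In such tissue, fewer cells of a type and less RNA per cell cannot be told apart.

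A collagen was counted when its fold change was at least 1.5 at an unadjusted p under 0.05 in a limma fit of all 12 arrays, which is called the filter here. By this rule 3 of the 44 collagens passed in Ptpn11D61Y B vs. control B, where 1.3% of all 41345 clusters did. None passed in control S vs. B (3.17% of all clusters), 2 passed in Ptpn11D61Y S vs. B (1.14%), none passed in Ptpn11D61Y S vs. control S (1.83%), and 1 passed in the interaction of genotype and stimulation (1.17%). These were Col8a2, Col9a3 and Col6a1, and all belong to the other collagens. No collagen passed a Benjamini-Hochberg adjustment over all clusters, the smallest adjusted p of limma being 0.912 in control S vs. B and 1 in the other comparisons. At an unadjusted p under 0.05 alone there were 4, 0, 2, 0 and 1 collagens in the same order of comparisons. The test named in the methods, run on the groups compared alone, gave 2, 1, 0, 0 and 1 past the same filter.

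**Figure D1:**
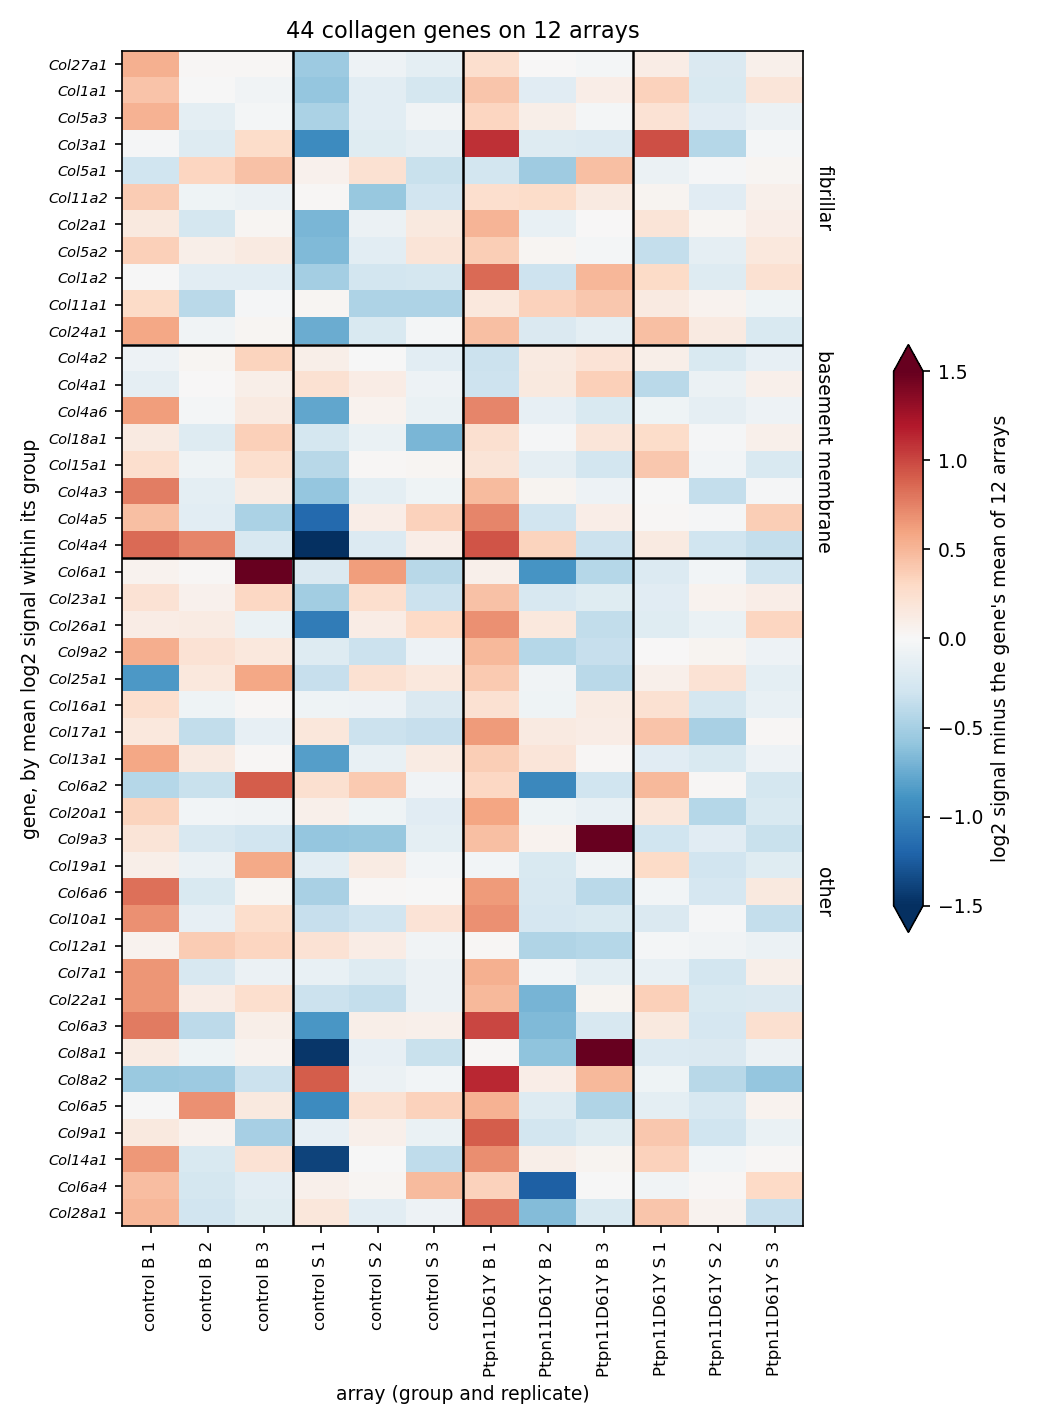
Log2 signal of each of the 44 collagen genes minus its own mean of the 12 arrays (colour, cut off at 1.5 in either direction), with genes in rows by group and arrays in columns by group and replicate. Replicate 1 of control B and Ptpn11D61Y B is mostly red, replicate 1 of control S is mostly blue, and Col8a1 and Col9a3 stand out on Ptpn11D61Y B replicate 3.

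Among the 3 short-chain collagens, Col8a2 alone passed the filter between the genotypes, in B only and at an unadjusted p. It encodes the α2 chain of type VIII collagen, which forms hexagonal sheets under endothelia and in Descemet's membrane of the cornea. Its log2 signals in control B replicates 1 to 3 were 4.53, 4.54 and 4.77, and in control S they were 6.0, 5.01 and 5.04. In Ptpn11D61Y B they were 6.22, 5.19 and 5.57, and in Ptpn11D61Y S they were 5.03, 4.68 and 4.51. The 3 control B arrays lay below all 3 of Ptpn11D61Y B and below all 3 of control S, whereas Ptpn11D61Y S lay below all 3 of Ptpn11D61Y B. Col8a2 was thus 1.05 ± 0.34 higher in Ptpn11D61Y B vs. control B on the log2 scale (limma, SE, unadjusted p = 0.00991) and 0.92 ± 0.34 lower after stimulation in Ptpn11D61Y (log2 fold change -0.92, unadjusted p = 0.0192 in limma). In control S vs. B it was at 0.74 ± 0.34 and missed the filter in limma (unadjusted p = 0.0514), with a 95% interval from -0.01 to 1.48. A replicate block for the animal, fixed or random, brought this response of the control past the filter too. The difference in Ptpn11D61Y S vs. B missed the filter without Ptpn11D61Y B replicate 1, at -0.64, and without Ptpn11D61Y S replicate 3, at -0.81. In Ptpn11D61Y S vs. control S the groups overlapped, and Col8a2 was at -0.61, opposite in direction to B. Without replicate 1 of every group that difference was -0.43.

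The response of Col8a2 to stimulation had opposite directions in the genotypes. From B to S it was higher by 1.47, 0.47 and 0.27 in control animals 1 to 3, and the differences were -1.19, -0.51 and -1.07 in the Ptpn11D61Y animals. The difference between these responses was -1.66 ± 0.48 (interaction in limma, unadjusted p = 0.00497, adjusted p = 1). Of the 44 collagens, only Col8a2 had one direction in all 3 control animals and the opposite in all 3 Ptpn11D61Y animals. The share of all clusters with such a pattern was 1.26%, so 1 collagen of 44 lies near this background. The interaction passed the filter under all 22 alternative settings, at -1.90 to -1.15, and Col8a2 in Ptpn11D61Y B vs. control B did so under all 23, at 0.72 to 1.28. The comparisons share arrays, since the control B and Ptpn11D61Y B arrays enter both the difference in B and the responses. With replicate 1 of every group left out, the response was 0.37 in control and -0.79 in Ptpn11D61Y. All 3 control B arrays and Ptpn11D61Y S replicates 2 and 3 lay under a log2 signal of 5, where the precision is limited.

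Col8a1, the α1 chain that combines with Col8a2 in type VIII collagen, did not follow it. Its log2 signals were 5.23, 5.04 and 5.16 in control B, 3.64, 4.98 and 4.77 in control S, and 4.90, 4.88 and 5.01 in Ptpn11D61Y S. In Ptpn11D61Y B they were 5.12, 4.50 and 7.99, so that replicate 3 stood far above every other array and the group overlapped control B. The genotype difference in B was 0.73 ± 0.70 (limma, unadjusted p = 0.322) with a 95% interval from -0.81 to 2.27. In control S vs. B the 3 S arrays of Col8a1 lay below the 3 B arrays, at -0.68 ± 0.70 (unadjusted p = 0.357 in limma), with replicate 1 the lowest. The difference was -0.22 when replicate 1 of every group was left out. In Ptpn11D61Y S vs. B Col8a1 was at -0.94 ± 0.70 (limma, unadjusted p = 0.208), and it passed the filter there only with array weights or when Ptpn11D61Y B replicate 2 was left out. Col10a1, the short-chain collagen of growth plate cartilage, stayed between -0.41 and -0.06 on the log2 scale in the 4 comparisons of groups, with none past the filter.

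**Figure D2:**
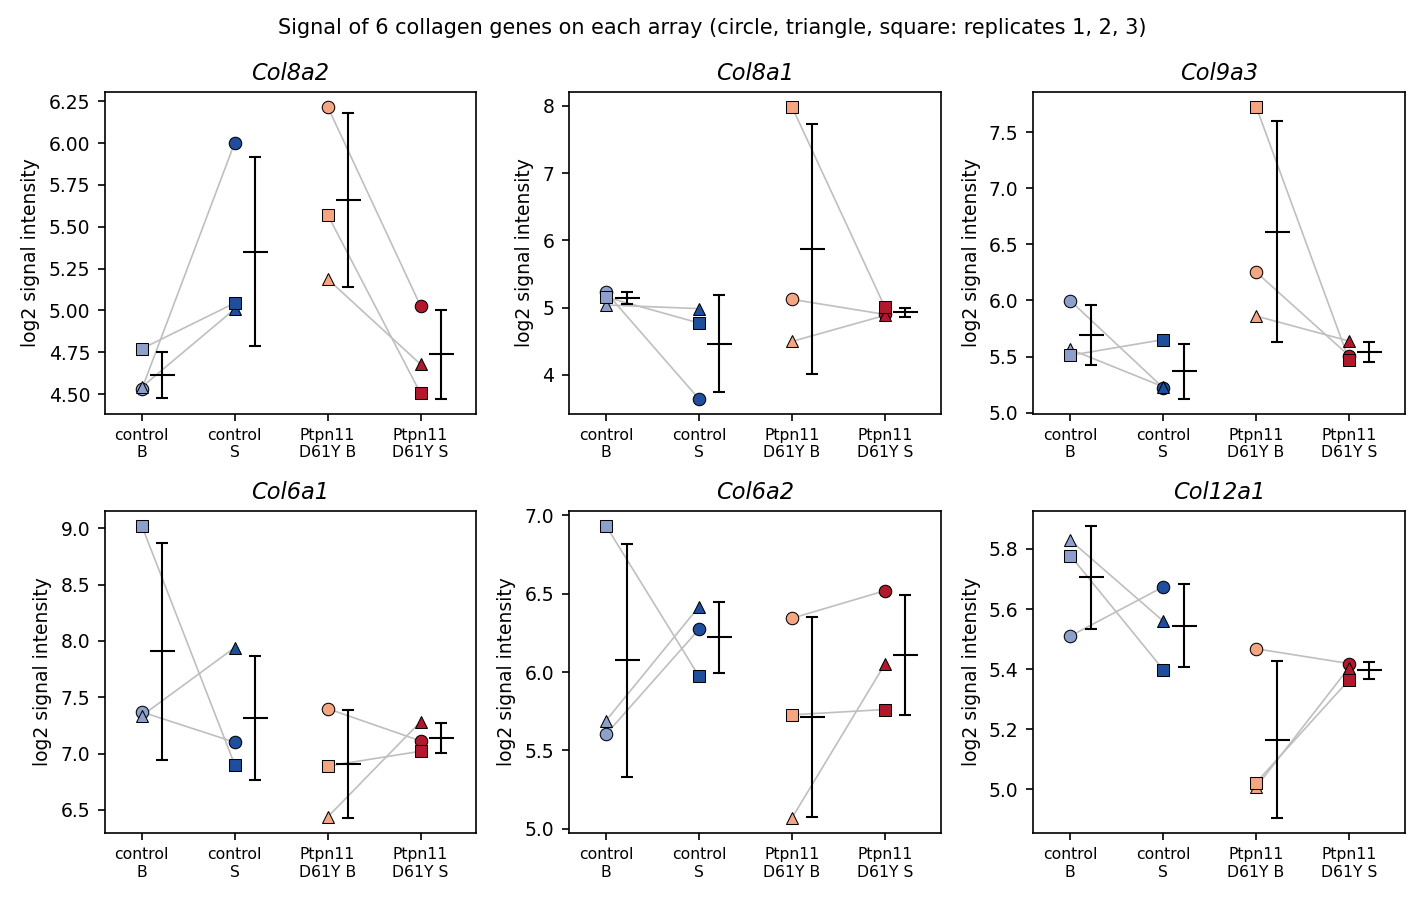
Log2 signal intensity of 6 collagen genes on each array, with circles, triangles and squares for replicates 1, 2 and 3, grey lines joining the B and S slices of an animal, and a bar with whiskers for the mean and SD of 3 arrays beside each group. Col8a2 goes up in each control animal and down in each Ptpn11D61Y animal, while Col8a1 and Col9a3 are highest on Ptpn11D61Y B replicate 3 and Col6a1 and Col6a2 on control B replicate 3.

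The promoter windows of the type VIII pair are shown because these 2 partner chains differed in the data. Each runs from 250 bases before to 50 after the gene start in RefSeq (GRCm38.p6), with GC boxes (GGGCGG on either strand) in capitals. The Col8a2 window lies at chr4:126286544-126286843 on the plus strand and the Col8a1 window at chr16:57754688-57754987 on the minus strand.
Col8a2: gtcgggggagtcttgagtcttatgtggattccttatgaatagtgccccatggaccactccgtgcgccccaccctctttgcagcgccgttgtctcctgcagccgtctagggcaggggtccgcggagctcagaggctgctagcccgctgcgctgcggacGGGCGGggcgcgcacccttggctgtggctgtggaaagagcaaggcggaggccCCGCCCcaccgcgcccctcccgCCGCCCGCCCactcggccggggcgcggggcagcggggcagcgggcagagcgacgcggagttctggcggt
Col8a1: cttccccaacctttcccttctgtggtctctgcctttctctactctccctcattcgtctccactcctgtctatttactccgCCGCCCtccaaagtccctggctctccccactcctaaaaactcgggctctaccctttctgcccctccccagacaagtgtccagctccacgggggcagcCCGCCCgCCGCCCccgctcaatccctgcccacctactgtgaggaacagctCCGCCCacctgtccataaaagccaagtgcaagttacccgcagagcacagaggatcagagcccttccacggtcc
Both windows hold 4 GC boxes, of which a pair overlaps in Col8a2, and GC makes up 71.7% and 60.3% of their bases. Neither holds the TATA box (TATAAA) or the CCAAT box. The AP-1 motif (TGANTCA) and the cAMP response element (TGACGTCA) are also not in either. Windows were found for 35 of the 44 collagens, 38 in all. The GC box was in 60.5% of them, against 35.7% of all 32851 windows, CCAAT in 34.2% against 37.4%, and TATAAA in 13.2% against 13.6%. TGANTCA was in 2.63% of the collagen windows, that is, in Col6a1 alone, against 7.81% of all windows. TGACGTCA was in 2.63%, in Col24a1 alone, against 1.79%. A match says only that these letters are in the window, with either strand searched.

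The calls of Col9a3 and Col6a1 did not outlast the loss of single arrays. Col9a3 encodes a chain of type IX collagen, which sits on the surface of type II fibrils in cartilage. Its log2 signals were 6.0, 5.56 and 5.51 in control B and 6.25, 5.86 and 7.73 in Ptpn11D61Y B, and these groups overlapped. In control S they were 5.22, 5.23 and 5.65, and in Ptpn11D61Y S, at 5.51, 5.64 and 5.47, all 3 lay below those of Ptpn11D61Y B. Col9a3 was at 0.92 ± 0.39 in Ptpn11D61Y B vs. control B (limma, unadjusted p = 0.0376) and at -1.08 ± 0.39 in Ptpn11D61Y S vs. B (unadjusted p = 0.0186 in limma). Without Ptpn11D61Y B replicate 3 these became 0.37 and -0.52, and neither passed. Without control B replicate 2 or 3 the first also missed the filter, at 0.86 and 0.83. The other type IX chains, Col9a1 and Col9a2, did not share this peak: on Ptpn11D61Y B replicate 3 they were at 4.77 and 6.20, against 4.67 and 6.12 on replicate 2.

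Ptpn11D61Y B replicate 3 was also the array on which choroid plexus markers were high. The 10 markers, which name the epithelium that secretes cerebrospinal fluid, had a median of 3.05 above their own means there and at most 0.19 on each other array, and their summed intensity was 15256 there and 410.1 to 722.3 elsewhere. Transthyretin, Ttr, reached 13.01 there and 4.59 to 7.18 on the other arrays, and no marker value was at the floor. Col8a1 and Col9a3 stood 2.89 and 1.93 above their means on this array, and the next collagens were Col1a2 at 0.50 and Col8a2 at 0.48. The median log2 difference of these markers was 1.17 in Ptpn11D61Y B vs. control B, with 2 of 10 past the filter, and -1.22 in Ptpn11D61Y S vs. B, with 3 of 10. Pcolce, which speeds the trimming of fibrillar procollagens, was at 9.36 on this array and at 4.94 to 6.23 elsewhere. The part of choroid plexus tissue in the values of Col8a1 and Col9a3 was not tested. Col8a2 was highest on Ptpn11D61Y B replicate 1, and without Ptpn11D61Y B replicate 3 its difference in B passed the filter as well. The part of choroid plexus tissue in its values was likewise not tested.

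The beaded filament collagens are the chains of type VI, which surrounds cells in many tissues. All 6 were below 0 in Ptpn11D61Y B vs. control B, at a median of -0.31 on the log2 scale, against 49.3% below 0 and a median of 0.00 for all genes with a single symbol, and Col6a1 passed the filter. The arrays of Ptpn11D61Y B differed among themselves: all 6 were above their own means on replicate 1 and none was on replicates 2 and 3. Col6a1 had log2 signals of 7.37, 7.34 and 9.02 in control B, 7.10, 7.94 and 6.90 in control S, 7.40, 6.44 and 6.89 in Ptpn11D61Y B and 7.11, 7.28 and 7.02 in Ptpn11D61Y S. Control B replicate 3 lay above all other arrays, and the groups overlapped. The difference in B was -1.0 ± 0.44 (limma, unadjusted p = 0.0412), and without control B replicate 3 it was -0.45 and missed the filter. It also missed the filter without any of Ptpn11D61Y B replicates 2 and 3, control S replicate 1 and Ptpn11D61Y S replicates 2 and 3, at -1.0 to -0.77. A second cluster of Col6a1 was at -0.42 ± 0.41 (unadjusted p = 0.329 in limma). Col6a2, its partner chain, was likewise highest on control B replicate 3, at 6.93, against 5.60 and 5.69 on the other control B arrays, and its difference in B was -0.36 ± 0.40 (limma, unadjusted p = 0.38).

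Among the fibril-associated collagens, Col12a1, which decorates type I fibrils in tendon and fascia, was lower in Ptpn11D61Y B on every array. Its log2 signals were 5.51, 5.83 and 5.78 in control B and 5.47, 5.01 and 5.02 in Ptpn11D61Y B, and the groups did not overlap. The difference of -0.54 ± 0.21 (limma, unadjusted p = 0.0271) was under the fold of 1.5 in this fit. The paper, with its own test, names both Col12a1 and Col8a2 among the differentially expressed genes of this comparison. Col12a1 and Col8a2 were the 2 collagens of 44 (4.55%) whose groups did not overlap in Ptpn11D61Y B vs. control B. This share is close to the 4.51% of all clusters. Without replicate 1 of every group, 7 collagens passed the filter in this comparison, Col12a1, Col11a1, Col25a1 and Col6a5 joining the former 3. That fit has 2 arrays per group, and the share of all clusters past the filter rose as well, from 1.3% to 4.19%. Leaving out replicate 1 of the Ptpn11D61Y B arrays alone gave 5, with Col12a1 and Col9a2 added. Leaving out the third replicate of either B group gave 1, Col8a2.

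In control slices most collagens lay lower after stimulation, and none passed the filter singly. In control S vs. B 38 of 44 were below 0, at a median of -0.34 on the log2 scale, against -0.03 and 53.2% below 0 for all genes with a single symbol, and -0.10 and 58.6% for all clusters. All 11 fibrillar collagens were below 0 (median -0.35), as were 7 of the 8 of basement membrane (-0.36) and 20 of the 25 others (-0.26). Centring the arrays on their medians shifted all clusters to 0.10 and left 29 of 44 collagens below 0, at a median of -0.14. A repeated quantile normalization gave 33 of 44 and -0.18, with all clusters at 0.02.

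The shift was largest in control animal 1. Within control animals 1, 2 and 3 the median S minus B difference of the 44 collagens was -0.76, 0.00 and -0.18 on the log2 scale, and 36, 22 and 32 of them were lower in S. The fibrillar collagens had medians of -0.92, -0.09 and -0.17, with 7 of 11 lower in all 3 animals. Of the basement membrane collagens 0 of 8 were lower in all 3 animals, and of the others 6 of 25. The share of all clusters with this pattern was not computed, so these counts have no background beside them. Without replicate 1 of every group the median of the 44 was -0.11, with 34 below 0 and all clusters at 0.01, and that of the fibrillar collagens was -0.13 with 10 of 11 below 0. Without control S replicate 1 alone the median of the 44 was -0.22, again with 34 below 0.

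The same replicates set the extremes of single collagens. Ptpn11D61Y B replicate 1 was the highest of the 12 arrays for 17 collagens and control B replicate 1 for 12. Control S replicate 1 was the lowest for 22. On these 3 arrays the median deviation of the collagens from their own means was 0.45, 0.27 and -0.38, and that of all genes with a single symbol was 0.02, -0.10 and -0.30. The 11 markers of meningeal fibroblasts other than collagens had medians of 0.08, 0.01 and -0.57 on these arrays. The part of these fibroblasts in the collagen values was not tested. The pattern was not particular to collagens. Proteases that cleave collagen had medians of 0.48, 0.45 and -0.64 on the same arrays. Astrocyte markers, which are brighter with mean log2 signals of 6.73 to 10.71, had medians of -0.56, -0.93 and -0.50. The part of the signal level in these deviations was likewise not tested.

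**Figure D3:**
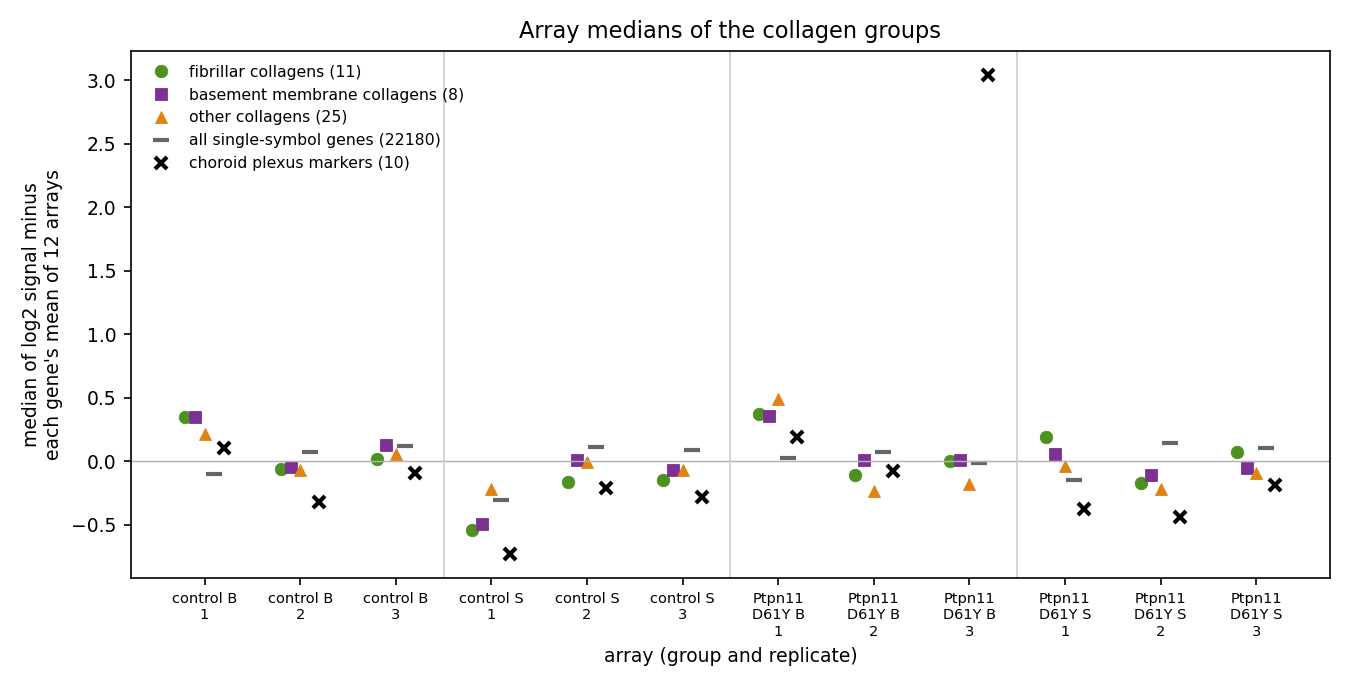
Median over the genes of a list of the log2 signal minus each gene's mean of 12 arrays, for the 3 groups of collagens, all genes with a single symbol and 10 choroid plexus markers, by array. The collagen groups are high on replicate 1 of control B and Ptpn11D61Y B and low on control S replicate 1, and the choroid plexus markers are at 3.05 on Ptpn11D61Y B replicate 3.

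The groups of control S vs. B did not overlap for 7 collagens (15.9%), where 10.2% of all clusters did not. Col8a2 was higher in S and Col1a1, Col1a2, Col22a1, Col27a1, Col8a1 and Col9a2 were lower. Col1a1, a chain of type I collagen, had log2 signals of 6.67, 6.24 and 6.20 in control B and 5.66, 6.08 and 5.98 in control S. All S arrays lay below all B arrays, by a mean of -0.46 ± 0.24 (limma, unadjusted p = 0.0805). Col27a1, a fibrillar collagen of cartilage, was at 7.05, 6.54 and 6.54 in B and at 5.98, 6.45 and 6.38 in S, with a difference of -0.44 ± 0.21 (unadjusted p = 0.0641 in limma). Type III collagen, Col3a1, which accompanies type I in vessel walls, overlapped between B (6.15, 5.98 and 6.45) and S (5.23, 5.99 and 6.04). Col5a3, a chain of type V, was at -0.35 ± 0.23 (limma, unadjusted p = 0.157). Col9a2, of type IX, was at 7.09, 6.76 and 6.70 in B and at 6.35, 6.22 and 6.47 in S, at -0.51 ± 0.24 (limma, unadjusted p = 0.0597). Col4a4, a chain of kidney basement membrane, was at -1.04 ± 0.51 (limma, unadjusted p = 0.0621), and Col14a1, which binds to fibrils, at -0.81 ± 0.38 (limma, unadjusted p = 0.0534). Both had their lowest value on control S replicate 1, at 2.44 and 3.55. Their differences shrank to -0.30 and -0.19 when replicate 1 of every group was left out. Those of Col1a1, Col27a1, Col5a3 and Col9a2 were then -0.18, -0.13, -0.02 and -0.39.

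The pairing of slices by animal moved the count of control S vs. B. With the animal as a random replicate block (consensus correlation 0.292), 4 collagens passed the filter in place of none, Col8a2 higher and Col14a1, Col22a1 and Col4a4 lower. With the animal as a fixed replicate block Col8a2 alone passed. Single arrays moved this count as well. It was 3 without control S replicate 2 (Col14a1, Col23a1 and Col8a2) and 3 without control S replicate 3 (Col13a1, Col4a4 and Col8a2). It was 2 without control B replicate 2 (Col14a1 and Col18a1), without Ptpn11D61Y B replicate 1 (Col14a1 and Col8a2) or without Ptpn11D61Y B replicate 2 (Col22a1 and Col8a2), and 1, Col4a4, without control B replicate 3.

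In Ptpn11D61Y slices most collagens also lay below 0 after stimulation, by a smaller median. In Ptpn11D61Y S vs. B 31 of 44 were below 0 with a median of -0.09, against 50.6% below 0 and a median of 0.00 for all genes with a single symbol. Of the fibrillar collagens 9 of 11 were below 0 (median -0.08), and of those of basement membrane 7 of 8 (-0.15). The centred arrays gave 24 of 44 and -0.02. Within Ptpn11D61Y animals 1 to 3 the medians of the 44 were -0.34, -0.03 and 0.00. The groups did not overlap for 5 collagens (11.4%, against 4.72% of all clusters), all lower in S: Col8a2, Col9a3, Col11a1, Col11a2 and Col13a1. The chains of type XI, Col11a1 and Col11a2, which set the width of cartilage fibrils, were at -0.26 ± 0.24 and -0.24 ± 0.22 in limma. Without replicate 1 of every group the median of the 44 was 0.01 with 21 below 0.

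**Figure D4:**
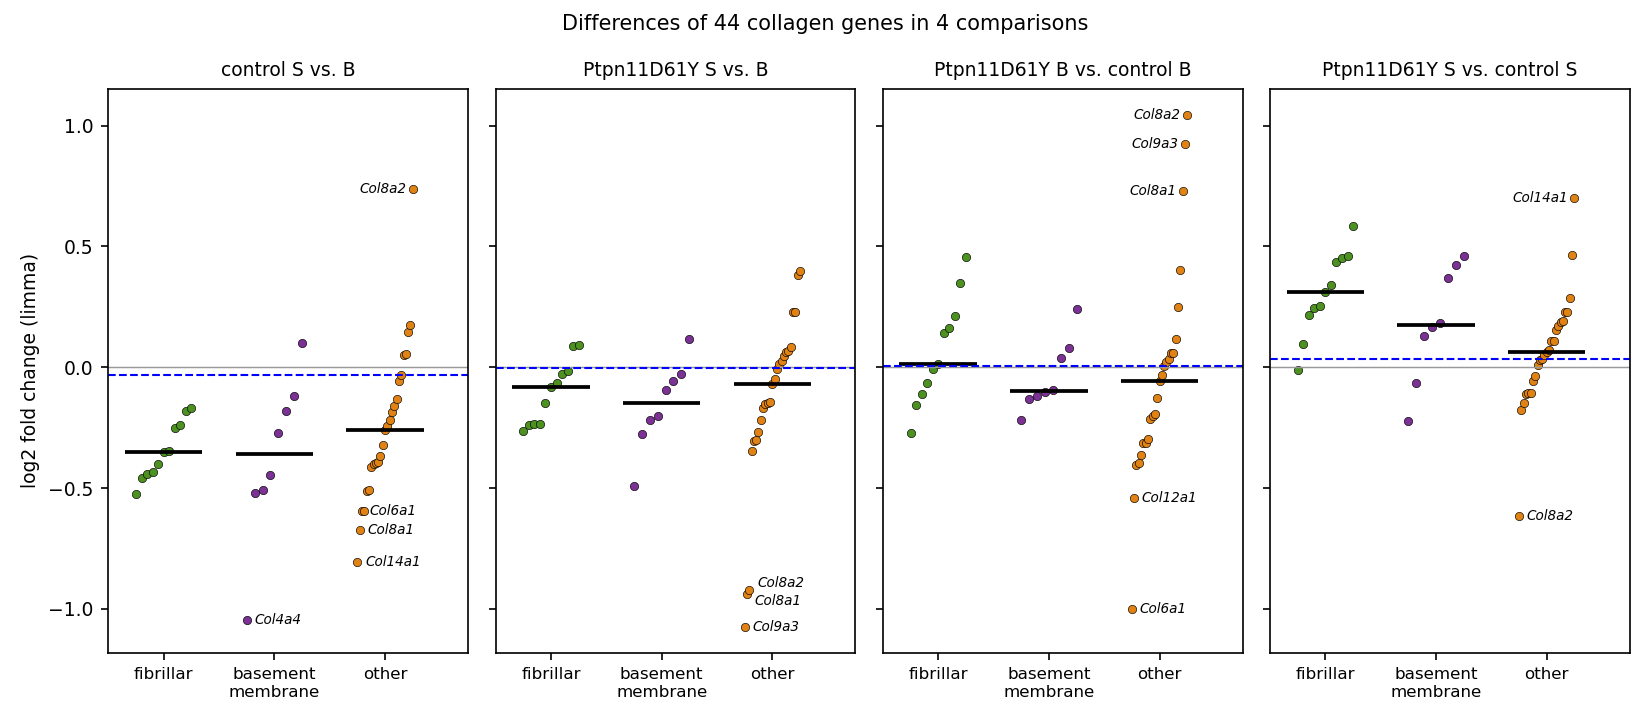
Log2 fold changes of the 44 collagen genes from limma in 4 comparisons (3 arrays per group), by group of collagens, with a black bar for the median of each group and a dashed line for the median of all genes with a single symbol. In control S vs. B all 11 fibrillar collagens lie below 0 at a median of -0.35, and 10 of 11 lie above 0 in Ptpn11D61Y S vs. control S, which shares the control S arrays.

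Between genotypes, the fibrillar collagens lay near 0 in B and above it in S. Their median in Ptpn11D61Y B vs. control B was 0.01, with 6 of 11 above 0 (-0.01 and 5 of 11 with centred arrays), and that of all 44 was -0.04. In Ptpn11D61Y S vs. control S, a comparison with the same control S arrays as above, the median was 0.31 with 10 of 11 above 0, and 33 of the 44 collagens were above 0 (median 0.16, against 0.03 for all genes with a single symbol). No single collagen passed the filter in S, although Col8a2 did so with centred arrays or a repeated quantile normalization, Col14a1 without control S replicate 2 and Col1a1 without Ptpn11D61Y S replicate 2. With centred arrays the fibrillar median was 0.16 with 9 of 11 above 0, and without replicate 1 of every group it was 0.05 with 8 of 11. For the 44 collagens those settings gave 0.01 and -0.04. The groups did not overlap for 2 collagens, Col18a1 and Col1a2, both higher in Ptpn11D61Y S, where 6.19% of all clusters did not. Col1a2, the partner of Col1a1, had log2 signals of 4.96, 5.19 and 5.20 in control S and 5.75, 5.28 and 5.70 in Ptpn11D61Y S, at 0.46 ± 0.29 (limma, unadjusted p = 0.138), whereas its second cluster was at -0.01. Col18a1, the source of endostatin, was at 5.15, 5.31 and 4.73 in control S and 5.68, 5.39 and 5.49 in Ptpn11D61Y S, at 0.46 ± 0.24 (unadjusted p = 0.0784 in limma). Col14a1 and Col1a1 followed at 0.70 ± 0.38 and 0.43 ± 0.24. Without replicate 1 of every group these became 0.18 and 0.19, and Col1a2 and Col18a1 were at 0.29 and 0.42. After Col8a2, the largest t of the interaction were those of Col9a2, at 0.59 ± 0.34, and Col22a1, at 0.62 ± 0.45 (limma, unadjusted p = 0.111 and 0.193). The median interaction of the 44 collagens was 0.20, with 8 below 0, against 0.02 and 46.8% below 0 for all genes with a single symbol. It was 0.07 with centred arrays and 0.10 with a repeated quantile normalization, with 17 and 13 below 0. Without replicate 1 of every group it was 0.11. Of single arrays, leaving out replicate 1 of control B or control S gave 0.08, replicate 2 or 3 of Ptpn11D61Y B gave 0.12, control S replicate 3 gave 0.32 and Ptpn11D61Y B replicate 1 gave 0.40.

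The main chains of basement membranes, Col4a1 and Col4a2, were among the steadiest collagens. Their SD over the 12 arrays was 0.22 and 0.19, where the 44 collagens ranged from 0.17 to 1.00 with a median of 0.36. Col4a2 was at 7.37, 7.47 and 7.78 in control B, 7.53, 7.44 and 7.29 in control S, 7.12, 7.57 and 7.65 in Ptpn11D61Y B and 7.53, 7.21 and 7.32 in Ptpn11D61Y S. On Ptpn11D61Y B replicate 1, where 17 collagens peaked, it had its lowest value, and Col4a1, at 6.56, was near its lowest of 6.46. Their differences in the 4 comparisons of groups lay between -0.22 and 0.10, and the 95% intervals between -0.69 and 0.57. The other chains, Col4a3 to Col4a6, all had their lowest value on control S replicate 1, and Col4a6 was at -0.52 ± 0.32 in control S vs. B (limma, unadjusted p = 0.128). Leaving out replicate 1 of every group gave -0.08 for Col4a6 in this comparison. Col4a1 and Col4a2 are neighbours that are read in opposite directions. Their RefSeq windows overlap by 78 bases at chr8:11312777-11312854 (GRCm38.p6). The Col4a2 window on the plus strand is shown with these bases in capitals because the windows of both genes hold this stretch.
Col4a2: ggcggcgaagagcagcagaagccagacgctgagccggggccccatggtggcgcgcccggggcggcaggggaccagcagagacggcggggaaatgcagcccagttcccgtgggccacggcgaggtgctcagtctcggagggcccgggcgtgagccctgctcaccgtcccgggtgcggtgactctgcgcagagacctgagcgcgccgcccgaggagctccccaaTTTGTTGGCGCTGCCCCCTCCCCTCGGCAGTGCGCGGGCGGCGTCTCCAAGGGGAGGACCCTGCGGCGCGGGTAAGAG
The capitals hold GGGCGG, and they hold neither TATAAA nor CCAAT. The part of this stretch in the steadiness of both genes was not tested.

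The transmembrane collagens Col13a1, Col17a1, Col23a1 and Col25a1 and the remaining Col7a1, Col26a1 and Col28a1 held no gene past the filter. Col25a1, a neuronal collagen found in amyloid plaques, differed by 0.02 to 0.07 on the log2 scale in the 4 comparisons of groups, and it passed in Ptpn11D61Y B vs. control B only with array weights or without replicate 1 of every group, where its difference was -0.59 in place of 0.02. Col23a1 and Col26a1, among the 4 other collagens with the highest mean signal, had no unadjusted p of limma under 0.05 in these comparisons.

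The proteins that make, bind or cleave collagen had no gene past the filter in any of the 5 comparisons. Of the enzymes and chaperones of collagen processing, 24 of 27 were measured by a cluster with a single symbol, and in control S vs. B their median was 0.01 with 14 above 0, while that of the collagens was -0.34. The largest moderated t in that comparison belonged to the cross-linking lysyl oxidase Lox, at -0.95 ± 0.49 (limma, unadjusted p = 0.0767), and to the prolyl hydroxylase P3h3, at -0.33 ± 0.19. In Ptpn11D61Y B vs. control B they were those of Pcolce2, a relative of Pcolce, at 0.80 ± 0.39, and of the collagen chaperone Serpinh1, at 0.46 ± 0.23 (unadjusted p = 0.0631 and 0.0686 in limma). Of the receptors, 9 of 10 were measured, and the platelet receptor Gp6 was the most distant in control S vs. B at -0.78 ± 0.44. All 8 proteases were measured, and 7 were below 0 in that comparison with a median of -0.25. The gelatinase Mmp2 was at -0.52 ± 0.30 in control S vs. B and at -0.44 ± 0.30 in Ptpn11D61Y S vs. B.

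In control S vs. B the 10 choroid plexus markers had a median of -0.31 with 9 below 0, close to the -0.34 of the collagens, and none passed the filter. Both lists were low on control S replicate 1, with median deviations from their own means of -0.73 and -0.38. That of all genes with a single symbol was -0.30. On control S replicates 2 and 3 the markers were at -0.21 and -0.28, and on control B replicates 2 and 3 at -0.32 and -0.10. In the same comparison of control S and B the 11 markers of meningeal fibroblasts had a median of 0.02, the 9 of mural cells 0.06 and the 10 of endothelium 0.03, and these 3 lists had no gene past the filter either. In Ptpn11D61Y S vs. control S the medians were 0.05, 0.30 and 0.11, with the pericyte peptidase Anpep past the filter. All 9 mural markers were above 0 in both comparisons between genotypes. This was not particular to mural cells, since all 6 markers of oligodendrocyte precursors and all 6 of astrocytes were too. Their medians were 0.43 and 0.25 in B and 0.35 and 0.14 in S. The part of any of these cell types in the collagen differences was not tested.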

How the data were processed

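RNA of hippocampal slices was hybridised to 12 Mouse Gene 2.0 ST arrays. According to the methods, the authors summarised probe signals with PLIER after background correction and quantile normalization (version not given in the sources used here), and the deposited signal intensity values are linear, although the methods tested log2 values. Array medians ran from 36.5 to 58.1, and the number of arrays limits the precision. Values were set to a floor of 1 and taken to log2. Genes were named by the platform annotation, where 23521 of 41345 transcript clusters carry 1 symbol, 1820 several and 16004 none. The 44 collagens had 47 clusters, and all matched RefSeq by gene ID.

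Groups were compared in R 4.3.3 with limma 3.58.1 and statmod 1.5.0 in a single fit of all 12 arrays (a mean per group, a variance trend, 8 residual degrees of freedom). p-values were adjusted by Benjamini-Hochberg over all clusters, and the filter of the methods was a fold of 1.5 and an unadjusted p under 0.05. With 3 arrays per group an exact permutation test cannot go below p = 0.1, so none was used. The methods' test averaged by Tukey bi-weight (constant 5). Alternatives are given in the closing section, and array quality, centring, an offset of 16 and blocks were among them. Code was tested on simulated data. The members and lists were chosen with earlier results of these data known. Named are collagens past the filter, the 4 with the highest mean in each group, the 3 with the largest t per comparison, and others where a sentence needed them, chosen after their values were seen. Motifs and figures were made in Python 3.11.15 with matplotlib 3.10.9.

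The labels give the same animal number to the B and S arrays of a genotype, from 3 mice each. Residuals of these pairs correlated at 0.05, -0.01 and 0.04 in control and at 0.55, 0.39 and 0.19 in Ptpn11D61Y, so control pairs did not deviate together. Arrays of different genotypes with the same number correlated at 0.56, 0.36 and 0.19 in B and at 0.12, 0.04 and 0.18 in S, and the fixed block for comparisons between genotypes was this number.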

Additional observations from a re-analysis of the deposited data

Results flagged for a closer look

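The response of Col8a2 to stimulation differed between the genotypes in a test of the difference itself, at an unadjusted p only. The interaction was -1.66 on the log2 scale (limma, unadjusted p = 0.00497, adjusted p = 1), with all 3 control animals higher in S and all 3 Ptpn11D61Y animals lower. Col8a2 was the 1 collagen of 44 past the filter in the interaction, where 1.17% of all clusters passed. The opposite directions in all animals were found in 1.26% of all clusters, so this collagen lies near the background. With replicate 1 of every group left out, the control response was 0.37. No array of a group of 3 was tested for being an outlier.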

How the results depend on the processing

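None of the 6 differences past the filter changed direction under any alternative. Without replicate 1 of every group, 6, 10, 12 and 19 of the 44 collagens changed sign for the genotypes in B, the responses of control and of Ptpn11D61Y, and the genotypes in S. Col25a1 did so in Ptpn11D61Y B vs. control B and passed the filter at -0.59, and the medians of the 44 collagens went from 0.16 to -0.04 for the genotypes in S and from -0.09 to 0.01 for the response of Ptpn11D61Y. The fibrillar median for the genotypes in B went from 0.01 to -0.01 with centred arrays. The counts of collagens past the filter were 3, 0, 2, 0 and 1 for the genotypes in B, the response of control, the response of Ptpn11D61Y, the genotypes in S and the interaction. Leaving out each array in turn gave 1 to 5, 0 to 3, 1 to 3, 0 to 1 and 1 to 2. The response of Ptpn11D61Y had 1 gene without replicate 1 or 3 of its B arrays or replicate 3 of its S arrays, and the interaction gained Col9a2 without replicate 1 of the B arrays. Without replicate 1 of every group the counts were 7, 0, 2, 0 and 3. The shares of all clusters were then 4.19%, 2.34%, 3.95%, 2.17% and 2.76%. With array weights the counts of collagens were 8, 1, 3, 0 and 4. The methods' test gave 2, 1, 0, 0 and 1, and only the 2 groups compared gave 1, 0, 1 and 0 for the first 4. Centred arrays and a repeated quantile normalization gave 3, 1, 2, 1 and 1 each. The fixed replicate block gave 3, 1, 2, 0 and 1 and the random one 2, 4, 2, 0 and 1, with the control response of Col8a2 gained in both, those of Col14a1, Col22a1 and Col4a4 gained with the random block, and Col6a1 lost with the random block. An offset of 16, dim clusters left out and the cluster of highest spread moved no count by more than 1.5 times.

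Of single genes, Col8a2 in Ptpn11D61Y S vs. B missed the filter in the methods' test (-0.92) and in 2 fits that left out an array (-0.64 and -0.81). Col9a3 missed it in both comparisons in the methods' test and with only the 2 groups compared, and Col6a1 did in both of these settings as well. The cause was not tested, except that these settings use fewer arrays or another test.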
